A study of Mus musculus with 2 samples.

Results

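Vitamin A reaches the limb as retinol and is turned there into retinoic acid, a signal that is bound by nuclear receptors and broken down by dedicated enzymes. The 10 genes described here, out of 56982 features counted, are Stra6, Rdh10, Dhrs3, Aldh1a2, Crabp1, Crabp2, Rara, Rarb, Rarg and Cyp26b1. They were chosen by name for their roles in retinoid uptake, synthesis, binding, signalling and breakdown, and all 10 were found in both libraries. Their levels were read across cell classes, across positions within the limb mesenchyme, and in each library separately.

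The study made single-cell RNA libraries from the hindlimbs of 2 transgenic mouse embryos of the FVB strain at E11.5, to read 2 fluorescent reporters of the ZRS, the limb enhancer of Shh. Both embryos carried ZRS-mCherry, in which the reference enhancer drives mCherry, and ZRS404G>A-eGFP, in which a variant of it drives eGFP, at the H11 locus, and neither is a wild type. In the dual-enSERT-2 embryo an element called SI lay between the reporters and one called B at each end of the pair. The label of the dual-enSERT-1 embryo names neither element. Each group is 1 library from 1 embryo, so embryo, construct and preparation cannot be told apart, no difference was checked against replicates, and cells were not tested as if they were replicates. A direction is given as seen in both libraries only where each showed it.

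The known order of the pathway sets the order of what follows. STRA6 is a membrane receptor that takes up retinol from its plasma carrier, RDH10 oxidises retinol to retinal, DHRS3 reduces retinal back to retinol, and ALDH1A2 oxidises retinal to retinoic acid. CRABP1 and CRABP2 bind retinoic acid in the cytosol, RARA, RARB and RARG are its nuclear receptors, and CYP26B1 is a cytochrome P450 that oxidises it for removal. In the mouse limb bud, retinoic acid is known as a signal of the proximal part and of the flank, Meis1 and Meis2 mark proximal mesenchyme, Hoxa13 marks the distal part that forms the foot, and loss of Cyp26b1 shortens the limb.

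The promoters of Rarb and Cyp26b1 are printed because Rarb was among the members higher in proximal than in distal cells and Cyp26b1 was the 1 member lower there. The Rarb promoter is known in the mouse for a retinoic acid response element of the DR5 type, a pair of half-sites in the same direction with a spacer between them. The sequences are those of RefSeq for GRCm38.p6, 300 bases each, 5′ to 3′ on the strand of the gene, with 250 bases before the start. The Rarb window is chr14:16575427-16575726 on the minus strand of GRCm38.p6, and the same letters lie at chr14:5894037-5894336 on the plus strand of GRCm39. The Cyp26b1 window is chr6:84593761-84594060 on the minus strand of GRCm38.p6 and chr6:84570743-84571042 on the minus strand of GRCm39. Capitals mark the DR5 match.
Rarb: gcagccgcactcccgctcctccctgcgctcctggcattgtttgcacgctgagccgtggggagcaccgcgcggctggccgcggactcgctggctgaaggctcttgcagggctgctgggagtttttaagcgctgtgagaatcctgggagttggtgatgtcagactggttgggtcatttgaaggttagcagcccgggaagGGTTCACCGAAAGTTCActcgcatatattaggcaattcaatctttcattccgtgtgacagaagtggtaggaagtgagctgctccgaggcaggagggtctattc
Cyp26b1: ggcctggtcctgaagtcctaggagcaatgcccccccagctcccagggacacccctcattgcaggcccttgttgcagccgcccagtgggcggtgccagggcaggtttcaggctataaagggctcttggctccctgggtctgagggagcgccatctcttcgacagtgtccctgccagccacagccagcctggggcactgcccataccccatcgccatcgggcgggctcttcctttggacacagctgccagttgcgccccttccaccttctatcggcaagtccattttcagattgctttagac

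The search took the half-sites AGGTCA and AGTTCA as well as GGGTCA and GGTTCA on both strands, and called DR5 a pair in the same direction with 5 bases between them. The Rarb match lies from 53 to 37 bases before the start. Of 32851 promoter windows in the table, 32 (0.0974%) held a DR5. A pair with 1 base between (DR1) was in 73 windows (0.222%) and a pair with 2 bases between (DR2) in 88 (0.268%). At least 1 half-site, whether or not in a pair, was in 14358 (43.7%). The table holds 17 windows for 8 of the 10 members. Among these, 1 held a DR5, none held a DR1 or DR2, and 5, the Rarb window included, held at least 1 half-site. The Cyp26b1 window printed held none of these letters.

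The dual-enSERT-2 library held 8885 barcodes with 184301053 UMIs (unique molecular identifiers, each standing for 1 captured RNA molecule), and the dual-enSERT-1 library 20508 barcodes with 298653282 UMIs. The libraries share 49 barcodes. After removal of poor barcodes and doublets, 6466 dual-enSERT-2 cells and 15877 dual-enSERT-1 cells were left. Mesenchyme-like cells were 68.2% of dual-enSERT-2 cells and 90.7% of dual-enSERT-1 cells, and erythroid-like cells 25.3% and 1.53% in the same order. Tbx4 and Pitx1, which mark hindlimb, were among the genes that named all 10 mesenchyme-like clusters of dual-enSERT-2 and all 20 of dual-enSERT-1. Mesenchyme-like cells thinned to 5000 UMIs each were placed by position, 4074 in dual-enSERT-2 and 12988 in dual-enSERT-1. Cells with Shh were taken first, then cells with Pax9, Alx1 or Alx4 (anterior), then cells with Hoxa13 (distal), then cells with at least 2 Meis1 or Meis2 UMIs (proximal). The Meis-positive cells were 859 in dual-enSERT-2 and 2150 in dual-enSERT-1. Of the proximal genes not used to set positions, 3 of 4 measured, Shox2 and Zbtb16 among them, were higher in Meis-positive than in Hoxa13-positive cells in both libraries, and all 5 distal genes were lower. The 10 erythroid markers summed to between 2249 and 2895 CPM (the UMIs of a gene scaled to a fixed total over the cells) in the 4 position groups of dual-enSERT-2 and to between 283 and 306 in those of dual-enSERT-1. Their part in the differences between libraries was not tested.

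Across cell classes, mesenchyme-like cells held the highest levels of Crabp1, Crabp2, Rarg and Cyp26b1, and the other classes differed from them gene by gene. Each level is a CPM value from the summed UMIs of all cells in the class, and its 95% interval is exact Poisson and covers counting error only. A member counted as higher or lower where it was at least 1.5-fold off in the same direction in both libraries and had 5 CPM or more in either class in both. No class other than mesenchyme had Aldh1a2 above 1.38 CPM in either library. Mesenchyme-like cells had 16.4 CPM of it in dual-enSERT-1 but only 0.261 CPM in dual-enSERT-2, so they stood above the other classes in dual-enSERT-1 alone.

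**Figure D1:**
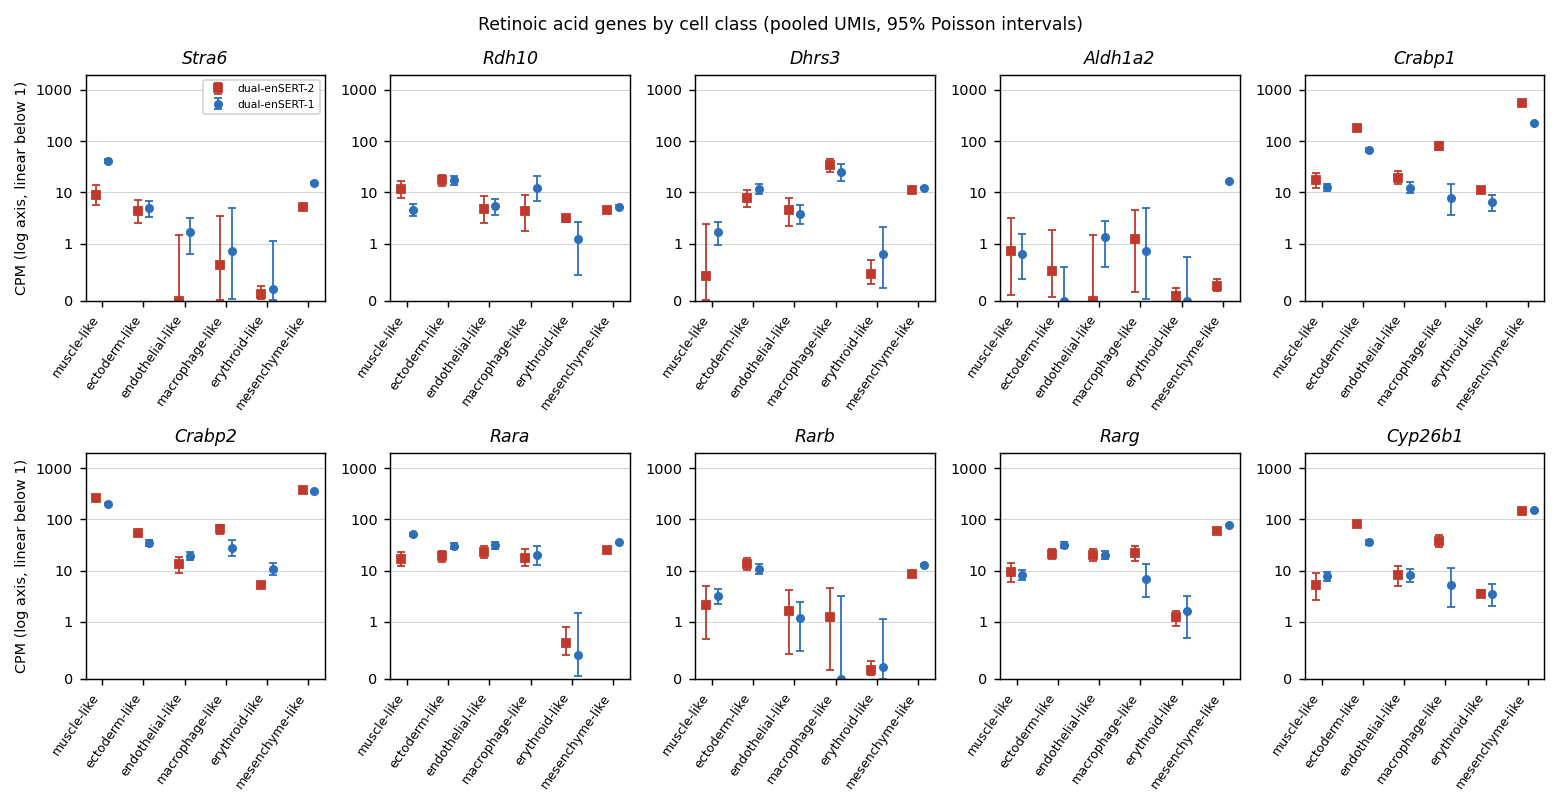
Level of each of the 10 genes in CPM (vertical log axis) by cell class, with dual-enSERT-2 as red squares left of dual-enSERT-1 as blue circles, and bars for exact Poisson 95% intervals. Crabp1 stands at 553 CPM in dual-enSERT-2 and 229 CPM in dual-enSERT-1 mesenchyme-like cells, and Rdh10 is highest in ectoderm-like cells at 17.3 CPM in both libraries.

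Muscle-like cells, the migrated muscle precursors of the limb, had more Stra6 than mesenchyme. Stra6 stood at 9.05 CPM in muscle-like and 5.19 CPM in mesenchyme-like cells of dual-enSERT-2, a ratio of 1.75 (95% interval 1.07 to 2.69). The level in dual-enSERT-1 was 40.4 CPM in muscle-like and 15.4 CPM in mesenchyme-like cells, a ratio of 2.63 (2.37 to 2.90). Of the 9 members measured in this comparison 1 was higher and 5 were lower in muscle, while 3.23% of the 10533 genes tested were higher and 6.7% lower. The 5 lower members were Dhrs3, Crabp1, Rarb, Rarg and Cyp26b1. Crabp1 fell to 17.2 CPM in muscle-like cells, against 553 CPM in mesenchyme-like cells of dual-enSERT-2, and to 12.6 CPM, against 229 CPM, in those of dual-enSERT-1. Cyp26b1 stood at 5.17 CPM (2.67 to 9.04) in muscle-like cells of dual-enSERT-2. Its level in erythroid-like cells there, a class that should lack it, was 3.57 CPM (3.04 to 4.16), so the intervals overlapped. In dual-enSERT-1 Cyp26b1 stood at 7.80 CPM (6.23 to 9.64) in muscle-like and 3.51 CPM (2.04 to 5.61) in erythroid-like cells, with separate intervals. Crabp2, in contrast, was abundant in muscle-like cells at 261 CPM in dual-enSERT-2 and 201 CPM in dual-enSERT-1, with ratios to mesenchyme of 0.708 and 0.562.

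Ectoderm-like cells, which include the apical ridge, had more Rdh10 than mesenchyme. Rdh10 stood at 17.3 CPM in ectoderm-like cells of both libraries, against 4.61 CPM in mesenchyme-like cells of dual-enSERT-2 and 5.26 CPM in those of dual-enSERT-1. The ratio was 3.75 (2.86 to 4.84) in dual-enSERT-2 and 3.30 (2.68 to 4.01) in dual-enSERT-1. Of 9 measured members 1 was higher in ectoderm and 4 were lower (Crabp1, Crabp2, Rarg and Cyp26b1), where 12.4% of the 11092 genes tested were higher and 10% lower. Cyp26b1 was still present at 81.2 CPM in ectoderm-like cells of dual-enSERT-2 and 35.6 CPM in those of dual-enSERT-1. The related enzyme Cyp26a1, one of 33 further retinoid genes listed, stood at 7.22 CPM in ectoderm-like and 0.0360 CPM in mesenchyme-like cells of dual-enSERT-2. In dual-enSERT-1 Cyp26a1 stood at 9.93 CPM in ectoderm-like and 0.0486 CPM in mesenchyme-like cells.

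In endothelial-like cells 7 of the 8 measured members were lower than in mesenchyme and none higher, with 22.8% of genes tested lower and 16.9% higher. Rara was the exception, at 23.0 CPM in endothelial-like and 25.2 CPM in mesenchyme-like cells of dual-enSERT-2, and at 31.4 CPM and 36.3 CPM in the same order in dual-enSERT-1. In macrophage-like cells Dhrs3 was the 1 higher member of 8 measured and 6 were lower, with 18.4% of genes higher and 22.4% lower. Dhrs3 stood at 33.7 CPM in macrophage-like and 11.1 CPM in mesenchyme-like cells of dual-enSERT-2, and at 25.3 CPM and 12.4 CPM in the same order in dual-enSERT-1. Each library had 56 macrophage-like cells, and Mpo led the genes of the dual-enSERT-2 cluster. In erythroid-like cells all 8 measured members were lower, where 86.4% of genes tested were lower and 4.15% higher, so their count says little about these genes.

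Along the proximal to distal axis, Rarb and Stra6 were the members that stood highest in Meis-positive relative to Hoxa13-positive cells, and Cyp26b1 was the member that stood lower. Of 9 members measured, 4 were higher in Meis-positive cells in both libraries (Rarb, Stra6, Rara and Crabp2) and 1 was lower (Cyp26b1), where 4.47% of the 10524 genes tested were higher and 2.45% lower. The median log2 ratio of the measured members was 0.30 in dual-enSERT-2 and 0.58 in dual-enSERT-1, beside 0.02 and 0.00 over all genes tested. Rdh10, Dhrs3, Crabp1 and Rarg passed in neither direction, and Aldh1a2 was not measured because dual-enSERT-2 had too little of it.

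**Figure D2:**
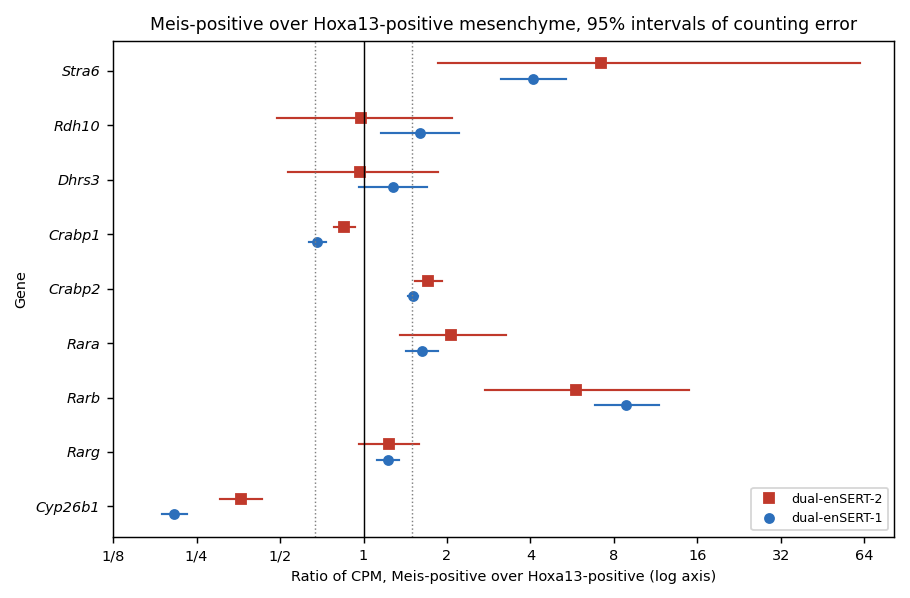
Ratio of CPM in Meis-positive over Hoxa13-positive mesenchyme-like cells (horizontal log axis) for the 9 members measured, with dual-enSERT-2 as red squares and dual-enSERT-1 as blue circles, bars for exact 95% counting intervals and dotted lines at 1.5-fold either way. Rarb lies at 5.84 in dual-enSERT-2 and 8.87 in dual-enSERT-1, and Cyp26b1 at 0.360 and 0.208.

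The uptake receptor Stra6 stood at 8.85 CPM in Meis-positive cells of dual-enSERT-2, 4.62 CPM in Pax9/Alx-positive cells, 1.23 CPM (2 UMIs) in Hoxa13-positive cells and 4.21 CPM in cells with no position, and had no UMI in the 110 Shh-positive cells. Stra6 in dual-enSERT-1 stood at 21.7 CPM in Meis-positive, 5.32 CPM in Shh-positive, 17.8 CPM in Pax9/Alx-positive, 5.29 CPM in Hoxa13-positive cells and 19.2 CPM in cells with no position. The ratio of Meis-positive over Hoxa13-positive cells was 7.19 (1.86 to 61.5) in dual-enSERT-2 and 4.10 (3.14 to 5.39) in dual-enSERT-1. The intervals of the 3 highest groups of dual-enSERT-1 overlapped, and the distal and Shh-positive groups lay below them. Stra6 (GRCm39 chromosome 9, 57970967 to 58063543, plus strand) overlaps Islr on the other strand by 16 bases. Islr stood at 2.56 CPM in Meis-positive and 0.615 CPM in Hoxa13-positive cells of dual-enSERT-2, and at 17.0 CPM and 7.62 CPM in the same order in dual-enSERT-1, and its part in the counts of Stra6 was not tested.

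The retinal-making Rdh10 (chromosome 1, 16175555 to 16203958, plus strand) was low throughout the mesenchyme. In dual-enSERT-2 it ranged from 3.49 CPM in cells with no position to 7.39 CPM in Hoxa13-positive cells, with overlapping intervals except between Meis-positive cells (4.90 to 10.2) and cells with no position (2.54 to 4.69). Rdh10 in dual-enSERT-1 stood at 8.09 CPM in Meis-positive, 12.6 CPM (7.60 to 19.7) in Shh-positive, 3.76 CPM in Pax9/Alx-positive, 5.08 CPM in Hoxa13-positive cells and 4.52 CPM in cells with no position. The Shh-positive level in dual-enSERT-2, 5.46 CPM from 3 UMIs, did not stand above the Hoxa13-positive one.

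Dhrs3, which works against RDH10, was lowest in Shh-positive cells of both libraries. It had 3.64 CPM (2 UMIs) in Shh-positive and 9.85 CPM (16 UMIs) in Hoxa13-positive cells of dual-enSERT-2, a ratio of 0.369 (0.0412 to 1.57). In dual-enSERT-1 it had 0.665 CPM (1 UMI) in Shh-positive and 7.34 CPM (104 UMIs) in Hoxa13-positive cells, a ratio of 0.0905 (0.00227 to 0.516). The interval of dual-enSERT-2 includes 1. Of 7 members measured in this comparison Dhrs3 was the 1 lower and none was higher, where 1.6% of the 10427 genes tested were lower and 1.69% higher. The call was kept in 14 of 18 alternative settings and lost with no thinning, after thinning to 10000 UMIs, with a minimum of 10 CPM and in a second random thinning. Cyp26b1 did not move alike in the 2 libraries here, with a ratio of 0.541 in dual-enSERT-2 and 1.12 in dual-enSERT-1.

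Aldh1a2, which makes retinoic acid itself, was almost confined to dual-enSERT-1. Among all kept cells it had 39 UMIs in 34 cells of dual-enSERT-2 and 3395 UMIs in 1399 cells of dual-enSERT-1. In thinned mesenchyme of dual-enSERT-2 its 4 UMIs gave 0.196 CPM, so no position can be read there. In dual-enSERT-1 it stood at 32.2 CPM (28.9 to 35.8) in Meis-positive, 2.66 CPM in Shh-positive, 9.77 CPM (6.95 to 13.4) in Pax9/Alx-positive, 15.2 CPM (13.2 to 17.3) in Hoxa13-positive cells and 21.7 CPM in cells with no position. Only the intervals of the Pax9/Alx-positive and Hoxa13-positive cells overlapped, and only just. The ratio of Meis-positive over Hoxa13-positive cells in dual-enSERT-1 was 2.12 (1.78 to 2.53), but the level in cells with Meis was uneven. For this, all thinned mesenchyme-like cells with at least 2 Meis1 and Meis2 UMIs, whatever their position, were split by Sox9, a cartilage regulator. Aldh1a2 stood at 83.2 CPM in the 733 of them with at least 2 Sox9 UMIs and 3.81 CPM in the 1260 without Sox9. The Hoxa13-positive cells were not split by Sox9, so these values cannot be set beside theirs. Cells with Sox9 and without Meis had 39.2 CPM. Aldh1a2 lies on GRCm39 chromosome 9 from 71122630 to 71203527 on the plus strand, in a different part of the chromosome from Stra6 and Crabp1.

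Within dual-enSERT-1, Aldh1a2 went with Sox9. In mesenchyme-like cells without Shh it stood at 4.90 CPM with no Sox9 UMI, 16.7 CPM with 1, 34.2 CPM with 2, 42.4 CPM with 3 and 69.6 CPM with 4 or more. A single cluster of 586 cells, 3.69% of the library, held 29.6% of its Aldh1a2 UMIs, and 52.9% of those cells (median 9932 UMIs) had at least 1. No Aldh1a2 UMI was seen in the 243 erythroid-like cells of that library (median 19376 UMIs). The other genes that led this cluster were Tbx18, Tbx15, Fibin, Tbx4, Sox9 and Shox2. Cells with at least 2 Sox9 UMIs, called Sox9-positive, were fewer in dual-enSERT-2, at 10.6% (9.70 to 11.6) of thinned mesenchyme, than in dual-enSERT-1 at 29.7% (28.9 to 30.5). Among Sox9-positive cells the Aldh1a2 level was still 0.924 CPM in dual-enSERT-2 and 52.3 CPM in dual-enSERT-1.

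**Figure D3:**
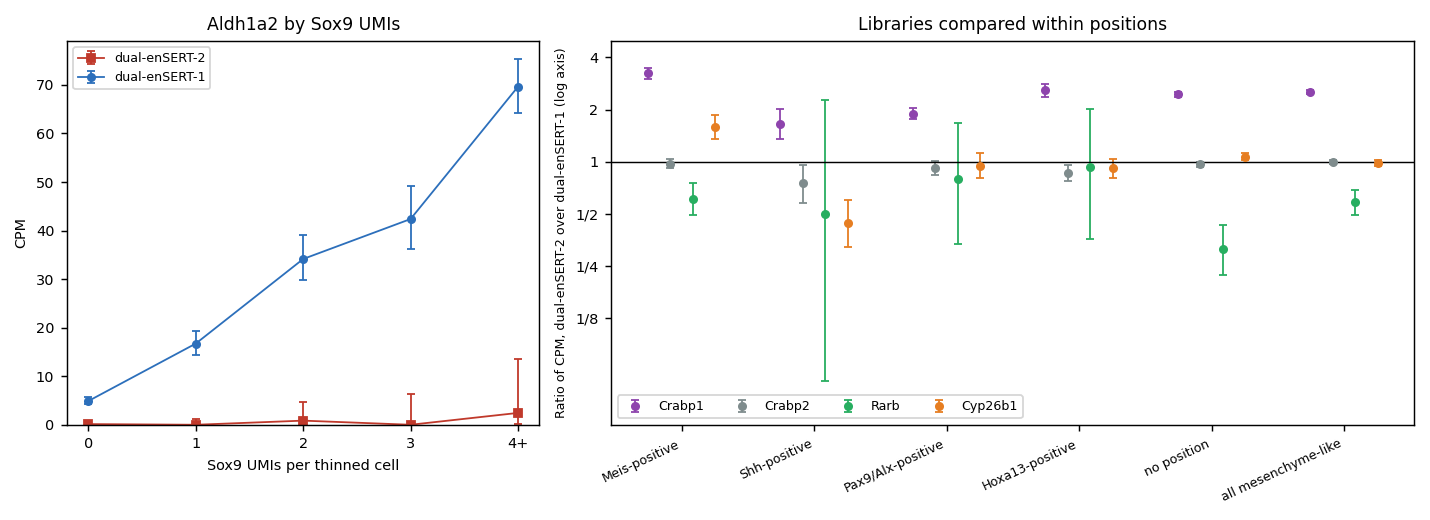
Left, Aldh1a2 in CPM by Sox9 UMIs per thinned mesenchyme-like cell, which in dual-enSERT-1 goes up from 4.90 CPM with none to 69.6 CPM with 4 or more and stays near the floor in dual-enSERT-2. Right, ratio of dual-enSERT-2 over dual-enSERT-1 (log axis, exact 95% counting intervals) by position for Crabp1, Crabp2, Rarb and Cyp26b1, where Crabp1 lies between 1.65 and 3.23 in all 5 positions.

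The cells with Aldh1a2 in dual-enSERT-1 had less Crabp1, Cyp26b1 and Stra6 and more Rara, with separate intervals. Crabp1 stood at 74.1 CPM in 807 Aldh1a2-positive cells and 229 CPM in Aldh1a2-negative cells, a ratio of 0.324 (0.288 to 0.363). Cyp26b1 stood at 67.4 CPM in Aldh1a2-positive and 145 CPM in Aldh1a2-negative cells, a ratio of 0.466 (0.411 to 0.525). Stra6 stood at 11.4 CPM (8.35 to 15.2) in Aldh1a2-positive and 16.5 CPM (15.5 to 17.55) in Aldh1a2-negative cells. Rara stood at 51.05 CPM (44.3 to 58.5) and 36.1 CPM (34.6 to 37.7) in the same order. Aldh1a2 and Cyp26b1 were seen together in 1.65% (1.44 to 1.88) of all thinned mesenchyme-like cells, where independent detection would give 2.58%. Among Hoxa13-positive cells the direction was the same, with 1.764% (1.312 to 2.319) seen and 2.917% under independence. Among Meis-positive cells the direction was reversed, with 2.279% (1.691 to 3.002) seen and 1.44% under independence. Dual-enSERT-2 had 4 Aldh1a2-positive cells, so its values cannot be set beside these. The call rule, which asks for both libraries, took Crabp1 as lower among 7 members measured on 4 UMIs of those 4 cells, with 2.37% of the 10281 genes tested lower and 1.8% higher.

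The binding proteins Crabp1 and Crabp2 differed in where they stood. Crabp2 (chromosome 3, 87855973 to 87860683, plus strand) had 402 CPM in Meis-positive, 151 CPM in Shh-positive, 412 CPM in Pax9/Alx-positive, 235 CPM in Hoxa13-positive cells and 376 CPM in cells with no position of dual-enSERT-2. In dual-enSERT-1 it had 413, 202, 448, 275 and 390 CPM in the same order. Both libraries thus had the same order of groups, with Pax9/Alx-positive cells highest and Shh-positive cells lowest, although the Pax9/Alx-positive (378 to 449) and Meis-positive (383 to 421) intervals of dual-enSERT-2 overlapped. The ratio of Meis-positive over Hoxa13-positive cells, 1.71 (1.53 to 1.92) in dual-enSERT-2 and 1.504 (1.44 to 1.57) in dual-enSERT-1, sits at the 1.5-fold line, and its call was kept in only 9 of 18 alternatives.

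Crabp1 (chromosome 9, 54671171 to 54680403, plus strand) was highest in the anterior cells. It had 823 CPM in Pax9/Alx-positive cells and 533 CPM in the other mesenchyme-like cells of dual-enSERT-2, a ratio of 1.55 (1.45 to 1.65). In dual-enSERT-1 it had 435 CPM in Pax9/Alx-positive and 205 CPM in the other cells, a ratio of 2.12 (2.02 to 2.23). Crabp1 was the 1 member of 7 measured that was higher in this comparison and none was lower, with 0.661% of the 10443 genes tested higher and 0.709% lower. The comparison of all Pax9/Alx-positive cells with the rest was added after the data were seen, because the groups planned were small. All 5 anterior genes not used to set the group were higher in it and all 5 posterior genes lower. The genes that set the group were not in the same proportion in the libraries. Pax9, Alx1 and Alx4 stood in it at 18.5, 93.85 and 110 CPM in dual-enSERT-2, and at 149, 38.35 and 53.6 CPM in dual-enSERT-1. The part of this in the levels of the members was not tested. Dhrs3 stood at 13.9 CPM in Pax9/Alx-positive and 11.6 CPM in other cells of dual-enSERT-2, a ratio of 1.19 (0.692 to 1.92). In Pax9/Alx-positive cells of dual-enSERT-1 Dhrs3 reached 22.6 CPM, a ratio to the other cells of 1.96 (1.56 to 2.45), so it met the fold in that library alone.

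The planned anterior comparisons asked for Hoxa13 in both groups or for Meis in both, which did not hold the proximal to distal axis fixed. With Meis in both, the distal genes Lhx9 and Msx1 were called higher in Pax9/Alx-positive cells. The proximal gene Shox2 was called lower there, and so was the distal gene Hoxd12. With Hoxa13 in both, Hoxd12 was again called lower. The part of these differences in the levels of the members was not tested. Among cells with Meis and no Hoxa13, Crabp1 stood at 708 CPM in 50 Pax9/Alx-positive cells and 363 CPM in Meis-positive cells of dual-enSERT-2, and at 250 CPM (109 cells) and 112 CPM in the same order in dual-enSERT-1. Cyp26b1 was also called higher in that comparison. It stood at 96.0 CPM (24 UMIs, 61.5 to 143) in Pax9/Alx-positive and 60.5 CPM (53.4 to 68.4) in Meis-positive cells of dual-enSERT-2, with overlapping intervals. In dual-enSERT-1 it stood at 67.9 CPM (37 UMIs, 47.8 to 93.6) and 38.1 CPM (34.5 to 41.9) in the same order. These were 2 of 9 measured members, with 2.88% of genes higher and 2.39% lower, and the Cyp26b1 call was kept in 12 of 17 alternatives. Among cells with Hoxa13, Crabp1 stood at 644 CPM in 23 Pax9/Alx-positive cells and 425 CPM in the other Hoxa13-positive cells of dual-enSERT-2, and at 396 CPM (110 cells) and 164 CPM in the same order in dual-enSERT-1. Of 7 measured members there Crabp1 was higher and Rdh10 and Rara lower, with 2.66% of genes higher and 3.3% lower. The Crabp1 call was kept in 10 of 16 alternatives. The lower calls rest on 1 and 10 UMIs of Rdh10 and Rara in the Pax9/Alx-positive cells of dual-enSERT-1 and on 0 and 1 in those of dual-enSERT-2, and each was kept in 7 of 16 alternatives.

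**Figure D4:**
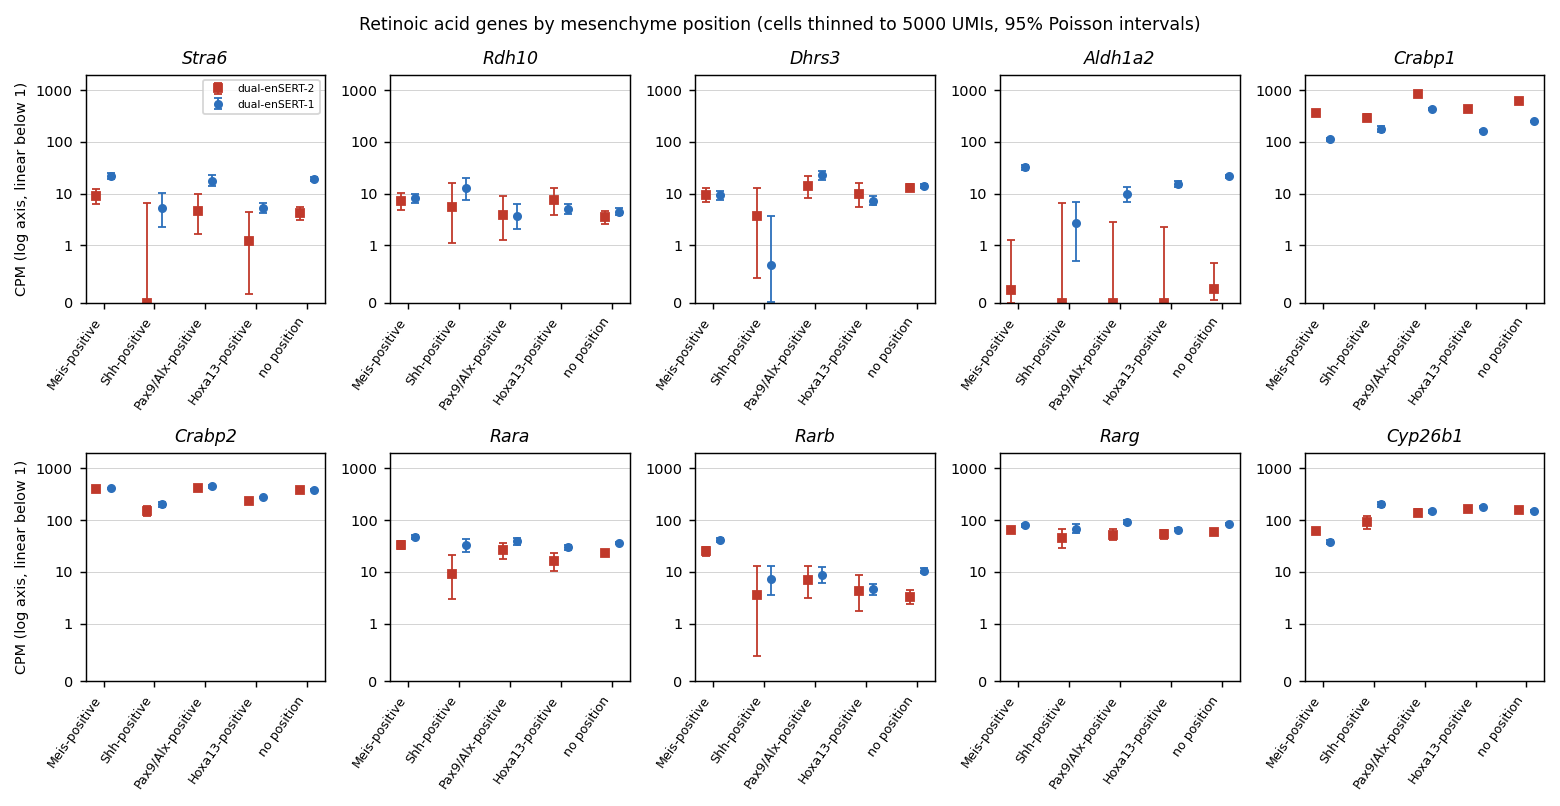
Level of each member in CPM (vertical log axis) in Meis-positive, Shh-positive, Pax9/Alx-positive and Hoxa13-positive mesenchyme-like cells and in cells with no position, dual-enSERT-2 as red squares left of dual-enSERT-1 as blue circles, with exact Poisson 95% intervals. Rarb is highest in Meis-positive cells at 25.1 CPM in dual-enSERT-2 and 41.3 CPM in dual-enSERT-1, and Crabp1 in Pax9/Alx-positive cells at 823 CPM and 435 CPM.

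The 3 receptors had different patterns. Rarb (chromosome 14, 5650540 to 6041094, plus strand) was unevenly spread across positions. In dual-enSERT-2 it stood at 25.1 CPM (20.6 to 30.4) in Meis-positive, 3.64 CPM in Shh-positive, 6.92 CPM in Pax9/Alx-positive, 4.31 CPM (1.73 to 8.88) in Hoxa13-positive cells and 3.33 CPM in cells with no position. Rarb in dual-enSERT-1 stood at 41.3 CPM (37.5 to 45.3) in Meis-positive, 7.31 CPM in Shh-positive, 8.77 CPM in Pax9/Alx-positive, 4.66 CPM (3.60 to 5.93) in Hoxa13-positive cells and 10.7 CPM in cells with no position. The Meis-positive interval lay above all others in both libraries, and those of the Shh-positive, Pax9/Alx-positive and Hoxa13-positive cells overlapped in dual-enSERT-2. The ratio of Meis-positive over Hoxa13-positive cells was 5.84 (2.74 to 14.9) in dual-enSERT-2 and 8.87 (6.84 to 11.7) in dual-enSERT-1, and this call was kept in 18 of 18 alternatives. Rarb shares 6794 bases with Top2b on the other strand. Top2b stood at 237 CPM in Meis-positive and 210 CPM in Hoxa13-positive cells of dual-enSERT-2, and at 314 CPM and 256 CPM in the same order in dual-enSERT-1, and its part in the counts of Rarb was not tested.

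Rara (chromosome 11, 98818612 to 98865768, plus strand) was present in every position and less uneven. It stood at 33.1 CPM in Meis-positive and 16 CPM in Hoxa13-positive cells of dual-enSERT-2, a ratio of 2.07 (1.35 to 3.27). In dual-enSERT-1 it stood at 48.2 CPM in Meis-positive and 29.7 CPM in Hoxa13-positive cells, a ratio of 1.62 (1.42 to 1.85). The call was kept in 14 of 18 alternatives. Rarg (chromosome 15, 102143373 to 102165952, minus strand) had a ratio of 1.23 in both libraries, with 65.9 CPM in Meis-positive and 53.5 CPM in Hoxa13-positive cells of dual-enSERT-2 and 80.4 CPM and 65.6 CPM in the same order in dual-enSERT-1. Its 5 positions ranged from 45.5 to 65.9 CPM in dual-enSERT-2 and from 65.6 to 92.0 CPM in dual-enSERT-1.

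Cyp26b1 (chromosome 6, 84548396 to 84570890, minus strand) was lowest in Meis-positive cells of both libraries. In dual-enSERT-2 it stood at 60.5 CPM (53.4 to 68.4) in Meis-positive, 90.9 CPM (67.5 to 120) in Shh-positive, 140.0 CPM in Pax9/Alx-positive, 168 CPM in Hoxa13-positive cells and 161 CPM in cells with no position. Cyp26b1 in dual-enSERT-1 stood at 38.1 CPM (34.5 to 41.9) in Meis-positive, 205 CPM in Shh-positive, 148 CPM in Pax9/Alx-positive, 183 CPM in Hoxa13-positive cells and 150 CPM in cells with no position. The 3 highest groups of dual-enSERT-2 had overlapping intervals. The ratio of Meis-positive over Hoxa13-positive cells was 0.360 (0.303 to 0.429) in dual-enSERT-2 and 0.208 (0.187 to 0.231) in dual-enSERT-1, and the call was kept in 18 of 18 alternatives.

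The opposite courses of Rarb and Cyp26b1 were also seen by degree. In mesenchyme-like cells with neither Shh nor Hoxa13, Rarb in dual-enSERT-2 stood at 2.86 CPM with no Meis UMI, 5.62 with 1, 9.49 with 2, 20.5 with 3, 10.3 with 4, 40.5 with 5 and 47.4 with 6 or more. In dual-enSERT-1 Rarb stood at 9.93, 11.4, 16.8, 16.8, 30.9, 27.5 and 74.5 CPM over the same bins. Cyp26b1 in dual-enSERT-2 stood at 174, 115, 97.5, 73.5, 41.4, 38.0 and 25.9 CPM, and in dual-enSERT-1 at 161, 90.6, 58.4, 48.4, 47.9, 45.1 and 18.9 CPM. Each step of Cyp26b1 was downward in both libraries, whereas Rarb went up with reversals. Crabp1 also went down, to 185 CPM with 6 or more Meis UMIs against 649 CPM with none in dual-enSERT-2, and to 93.2 CPM against 278 CPM in dual-enSERT-1. Crabp2 stayed between 367 and 433 CPM in dual-enSERT-2 and between 389 and 448 CPM in dual-enSERT-1. Every bin held at least 79 cells.

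**Figure D5:**
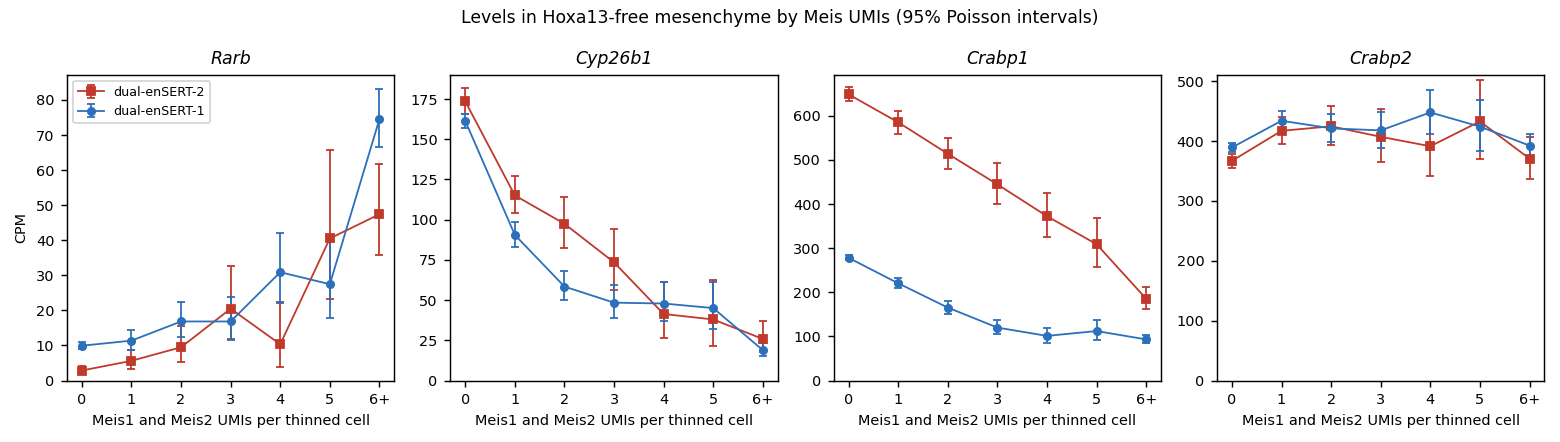
Level of Rarb, Cyp26b1, Crabp1 and Crabp2 in CPM (linear axis) by the number of Meis1 and Meis2 UMIs per thinned mesenchyme-like cell without Shh or Hoxa13, dual-enSERT-2 as red squares and dual-enSERT-1 as blue circles, with exact Poisson 95% intervals. From 0 to 6 or more Meis UMIs, Cyp26b1 goes down to 25.9 CPM in dual-enSERT-2 and 18.9 CPM in dual-enSERT-1 while Rarb goes up to 47.4 CPM and 74.5 CPM.

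Split by Cyp26b1 itself, 1 other member passed the 1.5-fold rule. Rarb stood at 3.93 CPM in 1628 Cyp26b1-positive and 11.1 CPM in 2446 Cyp26b1-negative cells of dual-enSERT-2, a ratio of 0.353 (0.233 to 0.523). In dual-enSERT-1 it stood at 9.24 CPM in 5391 Cyp26b1-positive and 17.8 CPM in 7597 Cyp26b1-negative cells, a ratio of 0.520 (0.448 to 0.602). Rarb was the 1 lower member of 8 measured and none was higher, where 0.475% of the 10325 genes tested were lower and 0.223% higher. Smaller differences with separate intervals were seen in both libraries for Crabp1 and Crabp2. Crabp1 stood at 601 CPM in Cyp26b1-positive and 518 CPM in Cyp26b1-negative cells of dual-enSERT-2, and at 252 CPM and 196 CPM in the same order in dual-enSERT-1. Crabp2 stood at 347 CPM in Cyp26b1-positive and 380 CPM in Cyp26b1-negative cells of dual-enSERT-2, and at 339 CPM and 389 CPM in dual-enSERT-1. Aldh1a2, not measured in dual-enSERT-2, stood at 12.7 CPM in Cyp26b1-positive and 26.6 CPM in Cyp26b1-negative cells of dual-enSERT-1. The split shares the Meis axis described above, and its part in this difference was not tested.

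Of the other limb genes used to mark mesenchyme, Osr1 and Isl1 marked cells with more Rarb and less Cyp26b1 in both libraries. In cells with Osr1, which marks connective tissue precursors, Rarb stood at 53.2 CPM, beside 7.36 CPM in cells without it, in dual-enSERT-2. The dual-enSERT-1 values were 40.2 CPM with Osr1 and 11.3 CPM without. In cells with Isl1, a regulator of early hindlimb outgrowth, Rarb stood at 19.4 CPM, beside 7.68 CPM without Isl1, in dual-enSERT-2, and at 44.4 CPM with and 12.3 CPM without it in dual-enSERT-1. Cyp26b1 was low in both, at 10.1 CPM in Osr1-positive cells against 139 CPM in cells without Osr1 in dual-enSERT-2, and at 53.2 CPM against 150 CPM in dual-enSERT-1. Isl1-positive cells had 55.1 CPM of Cyp26b1 against 141 CPM in cells without Isl1 in dual-enSERT-2, and 58.2 CPM against 145 CPM in dual-enSERT-1. Stra6 was higher in Osr1-positive cells, at 12.7 CPM with and 4.71 CPM without Osr1 in dual-enSERT-2 (interval of the ratio 0.854 to 6.50, which includes 1) and at 37.2 CPM with and 13.8 CPM without it in dual-enSERT-1. In cells with Scx, a tendon regulator, Stra6 stood at 10.5 CPM against 4.15 CPM in cells without it in dual-enSERT-2, and at 24.6 CPM against 12.5 CPM in dual-enSERT-1. Rarb in Scx-positive over other cells was at 1.79-fold (1.17 to 2.65) in dual-enSERT-2 and 1.004-fold (0.870 to 1.16) in dual-enSERT-1, and in Sox9-positive cells over cells without Sox9 both intervals included 1. The cells with at least 2 Meis1 and Meis2 UMIs, whatever their position, were also split by Sox9. Among them Rarb stood at 19.2 CPM with Sox9 and 27.8 CPM without it in dual-enSERT-2, and at 14.7 CPM and 58.1 CPM in dual-enSERT-1. Cyp26b1 in the same cells stood at 74.0 CPM with and 59.6 CPM without Sox9 in dual-enSERT-2, and at 80.8 CPM and 19.1 CPM in dual-enSERT-1. In cells with Gsc, a homeobox gene, Rarb was at 1.86-fold (0.737 to 3.92) in dual-enSERT-2 and 3.36-fold (2.91 to 3.88) in dual-enSERT-1, while Cyp26b1 was at 0.592 (0.418 to 0.814) and 1.14 (1.07 to 1.21) in the same order. Osr1-positive cells numbered 79 in dual-enSERT-2 and 1327 in dual-enSERT-1.

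None of the other retinoid network genes passed between proximal and distal cells. Of 32 further retinoid genes found in the files, 19 were measured between Meis-positive and Hoxa13-positive cells, and 0 were higher and 0 lower by the same rule. The plasma carrier gene Rbp4 stood at 8.85 CPM in Meis-positive and 12.9 CPM in Hoxa13-positive cells of dual-enSERT-2, and at 8.09 CPM and 21.2 CPM in dual-enSERT-1. Rxra, whose product pairs with the retinoic acid receptors, stood at 18.2 CPM in Meis-positive and 18.5 CPM in Hoxa13-positive cells of dual-enSERT-2, and at 17.7 CPM and 16.4 CPM in dual-enSERT-1. Of 18 genes listed as retinoic acid targets, 6 were measured, 4 were higher in Meis-positive cells and none was lower, beside the 4.47% of genes tested that were higher and 2.45% lower. The median log2 ratio of the measured targets was 1.25 in dual-enSERT-2 and 1.58 in dual-enSERT-1.

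Among the higher targets were the transcription factors Pbx3, Tbx18 and Osr1. Pbx3 stood at 256 CPM in Meis-positive and 135 CPM in Hoxa13-positive cells of dual-enSERT-2, and at 247 CPM and 115 CPM in the same order in dual-enSERT-1. Tbx18 stood at 84.8 CPM and 4.31 CPM in dual-enSERT-2, and at 182 CPM and 16.9 CPM in dual-enSERT-1. Osr1 stood at 14.2 CPM in Meis-positive cells and had no UMI in Hoxa13-positive cells of dual-enSERT-2, and stood at 98.2 CPM and 3.25 CPM in dual-enSERT-1. The list of targets and the proximal genes used to check the positions share a member.

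In muscle-like cells 4 of 19 measured retinoid network genes were higher than in mesenchyme, among them Rbp4 and the coregulators Ncoa3 and Nrip1, and Rdh5 was lower, beside 3.23% of genes tested higher and 6.7% lower. Rbp4 stood at 40.1 CPM in muscle-like and 10.2 CPM in mesenchyme-like cells of dual-enSERT-2, and at 60.3 CPM and 13.5 CPM in the same order in dual-enSERT-1.

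Between the libraries, Crabp1 was higher in dual-enSERT-2 mesenchyme, and Stra6, Aldh1a2 and Rarb were lower. Of the 10 members measured 1 was higher and 3 were lower, with 3.14% of the 10996 genes tested higher and 10.1% lower in dual-enSERT-2. Crabp1 stood at 551 CPM in dual-enSERT-2 and 219 CPM in dual-enSERT-1, a ratio of 2.52 (2.45 to 2.58). Within positions the ratio was 3.23 in Meis-positive, 1.65 in Shh-positive, 1.89 in Pax9/Alx-positive and 2.58 in Hoxa13-positive cells and 2.44 in cells with no position. Stra6 stood at 4.86 CPM in dual-enSERT-2 and 16.2 CPM in dual-enSERT-1, a ratio of 0.3003 (0.242 to 0.369). Aldh1a2 stood at 0.196 CPM in dual-enSERT-2 and 20.8 CPM in dual-enSERT-1, a ratio of 0.00942 (0.00256 to 0.0242).

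Rarb stood at 8.25 CPM in dual-enSERT-2 and 14.2 CPM in dual-enSERT-1 mesenchyme, a ratio of 0.580 (0.489 to 0.684) whose call was kept in 13 of 18 alternatives. Crabp2 stood at 367 CPM in dual-enSERT-2 and 368 CPM in dual-enSERT-1 (interval of the ratio 0.970 to 1.02). Cyp26b1 over all mesenchyme stood at 137 CPM in dual-enSERT-2 and 140 CPM in dual-enSERT-1 (0.937 to 1.02), but its ratio varied with the cells compared. It was 1.59 (1.36 to 1.86) in Meis-positive, 0.443 (0.322 to 0.599) in Shh-positive, 0.948 (0.799 to 1.12) in Pax9/Alx-positive and 0.918 (0.807 to 1.04) in Hoxa13-positive cells and 1.07 (1.015 to 1.13) in cells with no position. In all cells with at least 2 Meis1 and Meis2 UMIs and no Sox9, whatever their position, it was 3.13 (2.47 to 3.98). In Osr1-positive cells the Cyp26b1 ratio was 0.190 (0.0516 to 0.492). The make-up of the mesenchyme differed too. Hoxa13-positive cells were 7.98% of dual-enSERT-2 and 21.8% of dual-enSERT-1 thinned mesenchyme, Scx-positive cells 11.2% and 30.6%, and Osr1-positive cells 1.94% and 10.2% in the same order. The part of embryo, construct, preparation and cell make-up in the differences between libraries cannot be told apart.

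Genes whose levels followed a member's most closely were sought over 10 cell groups (the classes other than mesenchyme and the positions) among 9191 genes with at least 20 CPM in a group of both libraries. The measure was the lower of the 2 libraries' Pearson correlations of log2 levels, given as a description, since the groups share a library and its depth. Rarb was most like Scube3, with 0.940 in dual-enSERT-2 and 0.966 in dual-enSERT-1, then Pcdh9 and Sfrp1. Cyp26b1 was most like Cnih2, with 0.939 in dual-enSERT-2 and 0.941 in dual-enSERT-1, then Sertad4 and Scube1. Crabp1 was most like Scube1 (0.974 and 0.944), then Cnih2 and Pdgfra, so 2 of its 3 were shared with Cyp26b1. Crabp2 was most like Dact3 (0.972 and 0.977), then Rasl11b and Mmp16. For Aldh1a2 the closest gene reached only 0.718 and 0.679.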

How the data were processed

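The authors deposited unnormalized UMI counts, whole numbers for each feature in each barcode. The matrices came from Cell Ranger 7.0.1 per the file headers, but from Cell Ranger 3.1.0 per the submitters' processing notes, which also name Seurat 4 and the build mm39. Which annotation release was used, and whether introns and strand counted, is not given in the sources used here. Per the labels' protocols, collagenase II freed the hindlimb cells, of which 10000 went onto a 10x 3′ v3.1 chip, and sequencing gave about 50000 reads a cell.

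From these deposited counts, barcodes needed 1000 or more genes, which 1502 of dual-enSERT-2 and 2593 of dual-enSERT-1 did not have. Those with over 10% mitochondrial UMIs were also dropped, 700 more in dual-enSERT-2 and 125 more in dual-enSERT-1. Scrublet (Scanpy 1.11.5, expected rate 8%) then removed 217 doublets (3.25%) of dual-enSERT-2 and 1913 (10.8%) of dual-enSERT-1. Cells were scaled to 10000 counts and clustered per library with 2000 variable genes, 30 principal components, 15 neighbours and Leiden resolution 1 (leidenalg 0.10.2, igraph 0.11.9), without eGFP, mCherry, Shh, the 10 members and the other retinoid genes. Clusters took a class name where at least 3 of its listed markers were 2-fold higher and in at least 10% of the cluster. Levels by class use all UMIs, and levels by position use cells thinned to 5000 UMIs. Levels are CPM, pooled over cells, and calls use log2 ratios with a pseudocount of 1 CPM. Intervals are exact Poisson for levels and exact Clopper-Pearson for shares and ratios, at 95%, and cover counting error only. Other software was Python 3.11.15, pandas 2.3.3, matplotlib 3.10.9, scikit-learn 1.9.0, SciPy 1.17.1 and NumPy 2.4.6. The calling step was tested on simulated data.

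The members, lists and comparisons were chosen with earlier results of these data known. Named were the 10 members, any listed gene with 5 CPM or more in a group compared, and for each member the 3 genes most like it. Some genes of the lists are not reported here. The alternatives changed thinning depth, UMIs needed for a position, cell filters, doublet removal, pooling, pseudocount, minimum CPM, fold, library size and cluster resolution. Gene coordinates are those of GENCODE on GRCm39.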

Additional observations from a re-analysis of the deposited data

Results flagged for a closer look

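Rara stood apart in the comparison of muscle-like with mesenchyme-like cells because the 2 libraries went in opposite directions. Its log2 ratio was -0.52 in dual-enSERT-2 and 0.48 in dual-enSERT-1. In dual-enSERT-2 Rara stood at 17.2 CPM (12.3 to 23.5) in 77 muscle-like cells and 25.2 CPM in mesenchyme-like cells, a ratio of 0.684 (0.488 to 0.934). In dual-enSERT-1 it stood at 51.0 CPM (46.9 to 55.4) in 548 muscle-like cells and 36.3 CPM in mesenchyme-like cells, a ratio of 1.41 (1.29 to 1.53). The difference between the libraries was not tested. Myog and Myod1, genes of committed myoblasts, were among the markers that named the muscle-like cluster of dual-enSERT-1 and not among those of dual-enSERT-2, and the part of this in the Rara levels was not tested.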

How the results depend on the processing

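Of the recomputed counts of called members, 148 stayed within 1.5 times the reported one and 27 moved further. This compares how many members were called, not which. After thinning to 10000 UMIs the count for Shh-positive over Hoxa13-positive cells stayed, but with Rdh10 higher in place of Dhrs3 lower. After thinning to 2000 UMIs the count for Pax9/Alx-positive cells with Hoxa13 stayed, but none of the reported calls was among them. Of 3250 recomputed folds of single members 11 reversed, 353 moved by more than their counting interval, and the rest did not. The cause of each change was not tested.

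The count for Meis-positive over Hoxa13-positive cells was 5, and became 3 after thinning to 10000 UMIs, with doublets kept and at 2-fold. The count for Shh-positive over Hoxa13-positive cells was 1, and became 0 with no thinning, at a minimum of 10 CPM and in the second random thinning, and 2 with more UMIs needed for a position, with the mean of per-cell CPM and with levels from all UMIs. For Pax9/Alx-positive with Hoxa13 it was 3, and became 1 after thinning to 10000 UMIs, with a pseudocount of 5 CPM, at 2-fold and with levels from all UMIs, and 0 with no thinning, with per-cell means and in the second thinning. For Pax9/Alx-positive without Hoxa13 it was 2, and became 4 after thinning to 2000 UMIs, 5 with more UMIs needed, 0 at 2-fold and 1 in the second thinning. For Pax9/Alx-positive over other mesenchyme it was 1, and became 2 after thinning to 10000 UMIs, 3 with more UMIs needed and 0 at 2-fold. For Aldh1a2-positive cells it was 1, and became 2 after thinning to 2000 UMIs and 0 with no thinning. For Cyp26b1-positive cells it was 1, and became 2 with no thinning and 0 at 2-fold.

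The reversed log2 folds were those of Rara with Hoxa13, which became 3.54 in dual-enSERT-2 and 1.81 in dual-enSERT-1 after thinning to 2000 UMIs, 0.31 and 0.031 with no thinning, 0.10 in dual-enSERT-1 with per-cell means, 0.04 in dual-enSERT-1 with all UMIs and 0.45 in dual-enSERT-2 in the second thinning. Rdh10 in the same comparison became 0.27 after thinning to 10000 UMIs and 0.043 with all UMIs, both in dual-enSERT-1. Cyp26b1 in Pax9/Alx-positive cells without Hoxa13 became -5.49 in dual-enSERT-2 and -5.11 in dual-enSERT-1 with more UMIs needed, on 2 and 4 cells. The second thinning, levels from all UMIs and leaving out shallow clusters were chosen after the data were seen. No value could be had for Pax9/Alx-positive cells with Hoxa13 when more UMIs were needed, since dual-enSERT-2 then had 0 such cells. The comparisons by class kept every call in 7 of 7 alternatives. These alternatives changed the cell filter, doublets, per-cell means, library size, cluster resolution and shallow clusters. Fold, minimum CPM and pseudocount were not changed for the classes, so their calls were not checked against those settings.

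No paired analysis was possible because each group holds 1 library. For the same reason no replicate was left out. The number of cells limits the Shh-positive and Pax9/Alx-positive groups of dual-enSERT-2, and Dhrs3, Rdh10 and Stra6 in them. One mesenchyme-like cluster per library was shallow, with a median of 5186.5 UMIs in dual-enSERT-2 and 2981 UMIs in dual-enSERT-1.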
